A study of Drosophila melanogaster with 64 samples.

Results

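The larval serum protein genes of Drosophila melanogaster, Lsp2, Lsp1alpha, Lsp1beta and Lsp1gamma, were followed in heads of adult males after traumatic brain injury (TBI). They are 4 of the 17481 genes in the count table and were found by gene symbol. The set was put together with the falls of Lsp2 and Lsp1beta against sham at 12 h and 24 h in view, so values at those times are given as a description, without a test. All flies were males of the strain w[1118], reared at 25 C, and every sample pooled 20 heads. Injured flies received a severe TBI at 3 d of age, sham flies the sham procedure at the same age, and the uninjured controls were themselves 3 d old. Each condition was sampled at 9 times, from 1 h to 24 h (1, 3, 6, 12, 24) and from 3 d to 15 d (3, 7, 10, 15). A group held 3 samples, but 2 at 15 d. Sham and TBI flies of the later times were therefore older than the controls. The 64 libraries were made on 2 days: the times up to 24 h on day 2, and 24 h and all later times on day 1. The controls and the 24 h RNAs were prepared on both days. The question put to the series was how gene expression in the head changes over time after such an injury.

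Larval serum proteins are hexamerins, large secreted proteins that the larval fat body makes in bulk before pupariation. They circulate in the hemolymph, are taken back up by the fat body, and serve as a store of amino acids for building the adult. LSP1 is assembled from alpha, beta and gamma subunits, each with its own gene, and LSP2 is assembled from a single kind of subunit. Lsp2 is also transcribed in the adult fat body, the insect counterpart of liver and adipose tissue, of which the head holds a part. The genes are controlled by ecdysone in the larva.

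Total gene counts were 9.16 to 26.4 M in the libraries of day 1 and 18.6 to 44.9 M in those of day 2. Levels are CPM, counts per M gene counts scaled by TMM factors. The verbs rose and fell are kept for genes that passed edgeR's quasi-likelihood test, at an adjusted p (Benjamini-Hochberg) under 0.05 over all genes tested on that library day (10739 on day 2, 10567 on day 1). Differences are log2 fold changes ± standard error. As each replicate is its own pool of heads, a p-value here reflects how much such pools differ. All 17 fat body markers searched for were found and tested. The 13 larval and pupal glue and cuticle genes had medians of at most 2.39 CPM, with Sgs3, Sgs4, Sgs5, Sgs7 and Sgs8 at 0 on both days and Lcp2 at 0 in all 64 libraries. In the library labelled sham 12h replicate 3 all 3 yolk protein genes stood above the other sham 12 h libraries (Yp1 at 5.31 CPM against 0.0886 and 0.176 CPM). In TBI 10d replicate 3 Yp1 stood at 617 CPM, against at most 11.2 CPM in any other library.

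In build BDGP6.54 (annotation release 115) Lsp2, FBgn0002565, is a gene of 1 exon on the plus strand of chromosome 3L, from 12129393 to 12131869. An annotated antisense transcript, asRNA:CR11538 (chromosome 3L, 12129103 to 12131488, minus strand), overlaps it. Its counts were 0 to 46, with a median of 3. No source used here gives the strand setting of the counting, so the reads of this pair cannot be told apart. Lsp1beta (FBgn0002563) lies on chromosome 2L, 898500 to 901316, Lsp1alpha (FBgn0002562) on chromosome X, 12490291 to 12492982, and Lsp1gamma (FBgn0002564) on chromosome 3L, 66430 to 68995. These 3 have 2 exons each and lie on the plus strand. The Lsp1 genes are paralogs. The count table has a category for reads without a unique alignment (3.57% to 16.5% of the reads of a library). No source used here says whether all reads that fit more than 1 Lsp1 gene were placed there.

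The members differed in level by orders of magnitude in uninjured heads. Per length, the mean Lsp2 level in the controls of day 1 was 916 ± 116 RPKM (reads per kilobase of exon per M, SD, n = 3), rank 38 among 17343 genes. On day 2 it was rank 74. Lsp1beta stood at 49.2 RPKM and rank 1515 in the day 1 controls, and Lsp1alpha at 0.165 RPKM and rank 10772. Lsp1gamma was not measurable at this depth: its counts were 0 to 10 on day 1 (median 3, 5 libraries at 0) and 1 to 16 on day 2 (median 6). It did not pass the filter on low counts on day 1, and no fold change is given for it. Thus 3 of the 4 members were tested on day 1 and 4 of 4 on day 2, and Lsp1gamma is part of each count of 4 given for day 2.

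In the first hours Lsp2 was lower after TBI than after sham in every sample pair that shared a replicate number, but the groups overlapped at each time. At 1 h the 3 sham samples stood at 2565, 515 and 1314 CPM and the 3 TBI samples at 1348, 296 and 309 CPM. The highest TBI sample exceeded the lowest sham sample, and the highest value of each group was that of replicate 1. The difference was -1.17 ± 0.61 (adjusted p = 0.334). At 3 h sham stood at 466, 932 and 370 CPM and TBI at 394, 409 and 179 CPM, a difference of -0.85 ± 0.61 (0.413). At 6 h sham stood at 641, 239 and 189 CPM and TBI at 254, 118 and 50.8 CPM, a difference of -1.34 ± 0.61 (0.185). Replicate 1 was again the highest of each group and replicate 3 the lowest. Leaving out TBI 1h replicate 1 made the 1 h difference of Lsp2 -2.28 (edgeR adjusted p = 0.0412). Over all single libraries left out, the 1 h difference ranged from -2.28 to -0.49.

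Lsp1beta, the subunit gene with the higher level among the Lsp1 genes, had the same order of samples within each group as Lsp2 at 1, 3 and 6 h, except for TBI replicates 2 and 3 at 1 h. At 1 h sham stood at 99.9, 56.9 and 78.8 CPM and TBI at 71.8, 26.0 and 24.0 CPM (-0.95 ± 0.54, adjusted p = 0.393). At 3 h the values were 21.1, 40.0 and 15.6 CPM in sham and 19.7, 20.4 and 9.59 CPM in TBI (-0.63 ± 0.55, 0.524). The groups overlapped at these times, as they did at 6 h, where sham stood at 73.0, 32.8 and 18.9 CPM and TBI at 26.4, 11.9 and 6.51 CPM. The 6 h difference was -1.46 ± 0.55 (0.0900). It passed without sham 6h replicate 3 (-1.82, edgeR adjusted p = 0.0454) or without TBI 6h replicate 1 (-2.17, 0.0293). Over all single libraries left out, the 6 h difference ranged from -2.17 to -0.77. In edgeR 0 of 4 members passed at 1 h, 3 h or 6 h, where 7.39%, 16.5% and 12.1% of all genes did. At an unadjusted p under 0.05 the counts were 0, 0 and 2, and DESeq2 called 0 at each of these times.

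**Figure D1:**
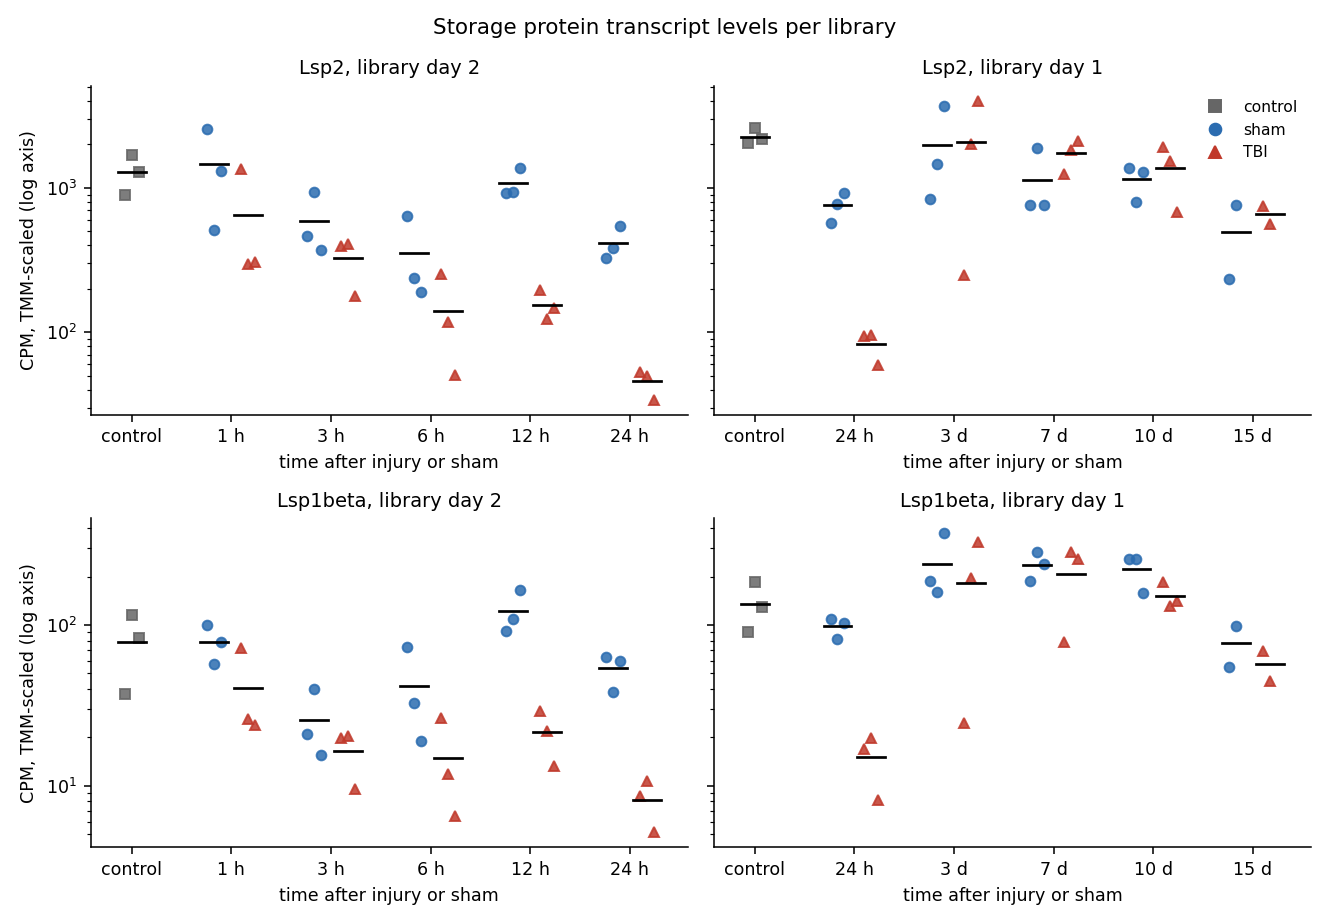
Levels of Lsp2 (top) and Lsp1beta (bottom) in each library, in CPM on a log axis, by time after injury or sham; points are libraries, black bars are group means, and the left and right panels are library days 2 and 1. At 24 h the TBI samples lie below all sham samples on both days, whereas from 3 d on the groups overlap.

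The 3 early times were then averaged, a test chosen after the values by time were known. Averaged over 1, 3 and 6 h, Lsp2 was lower after TBI by 1.12 ± 0.35 on the log2 scale (log2 fold change -1.12, 95% interval -1.85 to -0.39, edgeR adjusted p = 0.0189). Lsp1beta was lower by a similar amount (-1.02 ± 0.32, adjusted p = 0.0177). For each gene TBI was lower in 9 of 9 pairs of samples with the same replicate number. These 2 of 4 members passed, both lower, where 25.3% of all genes tested passed in either direction and 10.8% of all genes tested passed as lower. At an unadjusted p under 0.05 the count was 3, with Lsp1gamma, which rests on 1 to 16 counts per library (edgeR adjusted p = 0.0766). Neither the call of Lsp2 nor that of Lsp1beta held in all subsets. Without sham 3h replicate 2 the adjusted p was 0.0567 for Lsp2 and 0.0545 for Lsp1beta, and without sham 6h replicate 1 it was 0.0691 and 0.0665. Lsp2 also missed the threshold without sham 1h replicate 1 (0.0640) and in a model of the 6 groups alone (0.0777). An interaction test found no difference in the TBI effect between 1, 3 and 6 h for any member (Lsp2 adjusted p = 0.968, Lsp1beta 0.909, 0 of 4 members at an unadjusted p under 0.05, 1.38% of all genes passed).

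Over 1, 3 and 6 h Lsp2 had similar F statistics in the joint edgeR test after TBI (6.28) and after sham (6.02). The interaction test above found no difference in the TBI effect between these times. The adjusted values below also depend on the other genes tested. Within the injured groups of these hours, Lsp2 changed with time. Mean levels were 651 ± 603, 328 ± 129 and 141 ± 103 CPM at 1, 3 and 6 h (SD, n = 3), and the joint edgeR test over the 3 groups gave an adjusted p of 0.0335. It was the only member of 4 to pass, where 21.5% of all genes did, and Lsp1beta did not (0.0824). The call was lost without TBI 1h replicate 1, without TBI 6h replicate 2 or without TBI 6h replicate 3, with no filter on low counts and in a model of the 3 groups alone. Over the same hours the sham means of Lsp2 were 1465 ± 1034, 589 ± 300 and 357 ± 248 CPM, with an adjusted p of 0.133 in the same test. There 0 of 4 members passed in edgeR and in DESeq2, 2 had an unadjusted p under 0.05, and 2.51% of all genes passed.

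At 12 h the sham samples of Lsp2 stood at 928, 939 and 1377 CPM and the TBI samples at 197, 123 and 147 CPM. Every TBI sample lay below every sham sample. The log2 fold change was -2.80 ± 0.64, and -2.58 without sham 12h replicate 3. For Lsp1beta sham stood at 91.9, 109 and 166 CPM and TBI at 29.3, 21.9 and 13.3 CPM. These groups too were apart, with a log2 fold change of -2.51 ± 0.56 (-2.22 without that library). At this time 8.62% of all genes passed. Lsp1alpha had 29, 16 and 88 counts in the sham samples and 11, 3 and 3 in the TBI samples. In CPM its groups were apart as well (0.857, 0.705 and 2.90 against 0.439, 0.121 and 0.0864), with a log2 fold change of -2.84 ± 0.73. Without sham 12h replicate 3 it was -1.92, and without TBI 12h replicate 1 -3.83. At the other times of day 2 Lsp1alpha had 0 to 22 counts per library, and no fold change is given.

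At 24 h the same RNA was measured on both days, and the mean level of Lsp2 after TBI was the lowest of its library day on each. On day 1 sham stood at 575, 778 and 917 CPM and TBI at 94.1, 96.1 and 59.3 CPM. On day 2 the same RNAs gave 330, 383 and 543 CPM in sham and 52.8, 50.2 and 34.1 CPM in TBI. The groups did not overlap on either day, and the log2 fold changes were -3.19 ± 0.71 and -3.20 ± 0.66. By length-scaled rank Lsp2 moved from 212 in sham to 2095 in TBI on day 1, and from 274 to 3113 on day 2, among 17343 genes. Lsp1beta on day 1 stood at 110, 81.8 and 104 CPM in sham and 17.1, 19.9 and 8.19 CPM in TBI. On day 2 it stood at 63.3, 38.3 and 59.4 CPM and 8.60, 10.8 and 5.14 CPM. Its log2 fold changes were -2.71 ± 0.63 and -2.72 ± 0.58. Of all genes 15% passed at 24 h on day 1 and 8.4% on day 2.

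The same RNA gave lower storage protein levels on day 2 than on day 1. For Lsp2 the day 2 level was 0.439 to 0.653 times that of day 1 over the 9 RNAs (median 0.573), and for Lsp1beta 0.412 to 0.635 times (median 0.573). Day 2 was lower in all 9 RNAs for each gene, while the differences between TBI and sham at 24 h were alike on the days. Levels are therefore compared within a library day only.

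**Figure D2:**
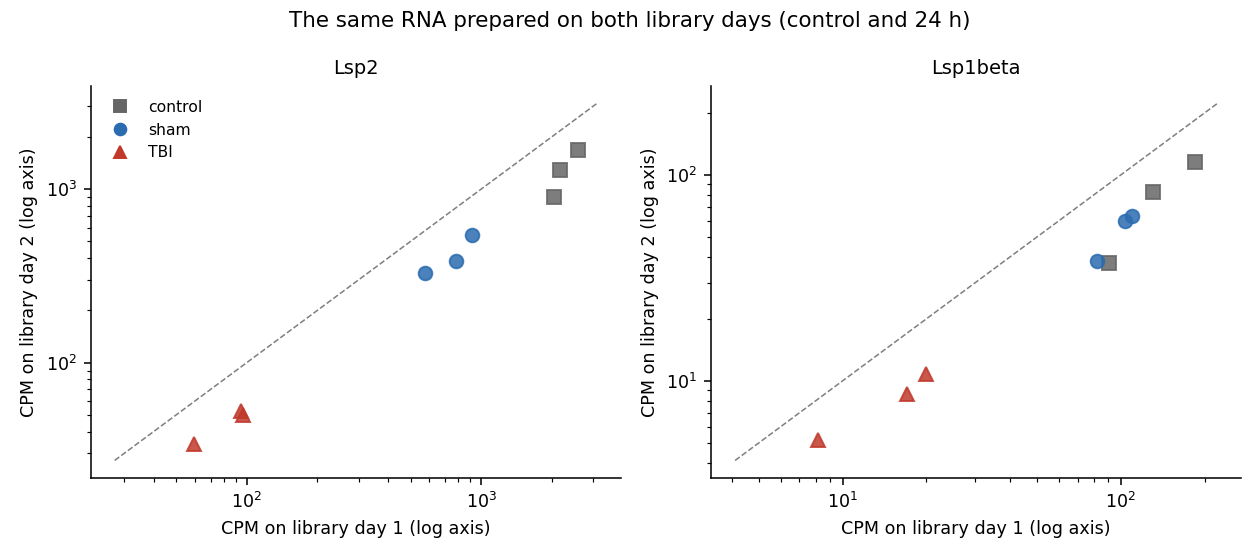
CPM of Lsp2 (left) and Lsp1beta (right) in the 9 RNAs of the control, sham 24 h and TBI 24 h groups, prepared on library day 1 (x axis) and again on library day 2 (y axis), both on log axes; the dashed line marks equal levels. All points lie below the line, between 0.439 and 0.653 times the day 1 level for Lsp2.

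From 3 d on, Lsp2 and Lsp1beta did not differ detectably between TBI and sham. At 3 d sham stood at 834, 1460 and 3688 CPM of Lsp2 and TBI at 248, 2014 and 4012 CPM. The spread within each group was wider than the gap between them, and replicate 3 was the highest and replicate 1 the lowest in both. The log2 fold changes of Lsp2 were 0.07 ± 0.65, 0.60 ± 0.66, 0.26 ± 0.66 and 0.41 ± 0.80 in order of time (edgeR adjusted p from 0.966 to 0.993). At 7 d the Lsp2 levels were 766, 1898 and 762 CPM in sham and 1257, 1830 and 2121 CPM in TBI. They were 1374, 797 and 1291 against 1932, 1545 and 678 CPM at 10 d, and 234 and 758 against 754 and 561 CPM at 15 d. Groups overlapped at all of these times.

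For Lsp1beta the 3 d values were 189, 160 and 371 CPM in sham and 24.6, 195 and 330 CPM in TBI. TBI 3d replicate 1 was low in both genes. The log2 fold changes of Lsp1beta were -0.39 ± 0.58, -0.20 ± 0.58, -0.56 ± 0.58 and -0.43 ± 0.72 at 3, 7, 10 and 15 d (adjusted p from 0.944 to 0.989), with overlapping groups. Averaged over the 4 late times, again a test chosen after the values were known, Lsp2 was at 0.34 ± 0.35 (adjusted p = 0.672) and Lsp1beta at -0.39 ± 0.31 (0.541). These p-values do not show that the levels were equal: the 95% intervals of single times reached from -1.30 to 1.44 for Lsp2 at 3 d. A test of the TBI effect between 3, 7, 10 and 15 d found no difference for any of the 3 members tested (Lsp2 adjusted p = 1, 0 at an unadjusted p under 0.05, 0.0284% of all genes passed).

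**Figure D3:**
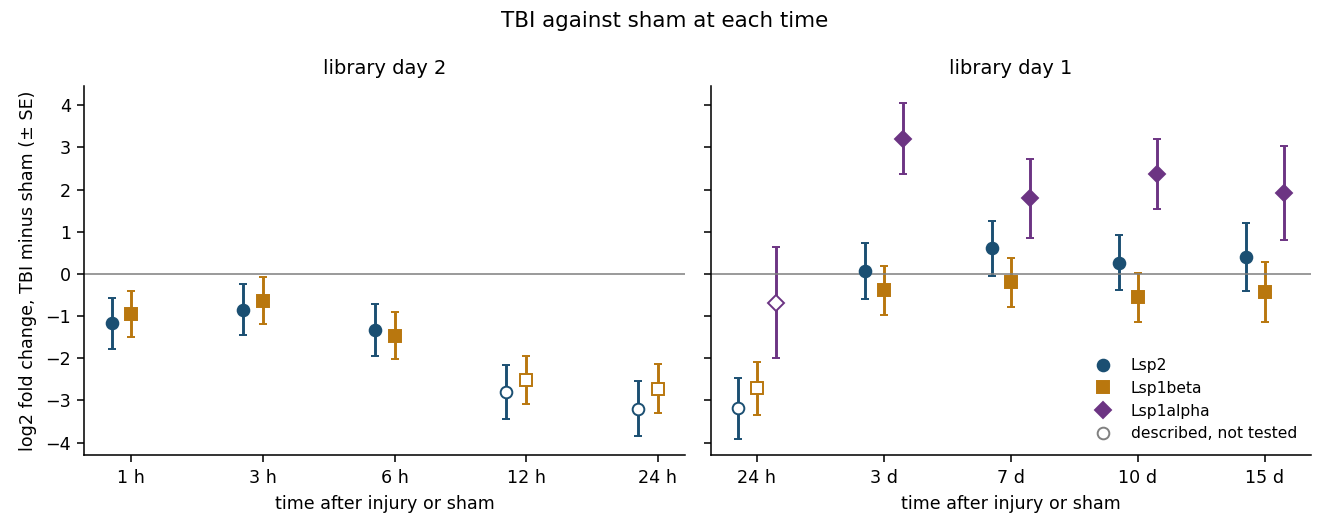
Log2 fold change of TBI minus sham (y axis, ± SE) at each time, from 1 model per library day, for Lsp2, Lsp1beta and, on day 1, Lsp1alpha; open symbols mark 12 h and 24 h, which are described and not tested. Lsp2 and Lsp1beta lie below 0 up to 24 h and near 0 from 3 d on, while Lsp1alpha lies above 0 from 3 d on.

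Lsp1alpha, the alpha subunit gene of LSP1, was higher in injured flies when the late times were averaged. At 3 d sham stood at 0.489, 0.296 and 1.61 CPM (11, 7 and 35 counts) and TBI at 0.263, 3.21 and 18.2 CPM (3, 31 and 245 counts). A single TBI sample carried most of that mean, and TBI replicate 1 lay below all sham samples. At 7 d sham stood at 0.539, 1.55 and 0.625 CPM and TBI at 2.53, 1.34 and 5.64 CPM. At 10 d sham stood at 1.47, 1.34 and 1.48 CPM and TBI at 5.63, 4.86 and 11.8 CPM, with 20 to 23 counts in the sham libraries and 68 to 172 in the TBI libraries. At 15 d the sham samples stood at 0.590 and 0.646 CPM and the TBI samples at 2.83 and 1.92 CPM. All TBI samples lay above all sham samples at 10 d and 15 d, and the groups overlapped at 3 d and 7 d.

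By single time the log2 fold changes of Lsp1alpha were 3.21 ± 0.85 (edgeR adjusted p = 0.0658), 1.79 ± 0.93 (0.830), 2.37 ± 0.82 (0.323) and 1.92 ± 1.11 (0.843) in order of time. None passed, so that 0 of the 3 members tested passed at 3, 7, 10 or 15 d, where 1.35%, 0.227%, 0.473% and 0.0379% of all genes did. At an unadjusted p under 0.05 the counts were 1, 0, 1 and 0. DESeq2 called 1 at 3 d, Lsp1alpha, and 0 at the other times. At 3 d the value of Lsp1alpha was 1.08 without TBI 3d replicate 3, and 3.77 (edgeR adjusted p = 0.00532) without TBI 3d replicate 1.

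Averaged over 3, 7, 10 and 15 d, Lsp1alpha was higher after TBI by 2.32 ± 0.47 on the log2 scale (95% interval 1.35 to 3.30, edgeR adjusted p = 0.00238). It was higher in 9 of 11 pairs with the same replicate number. This 1 of 3 members passed where 6.97% of all genes tested passed in either direction and 5.78% of all genes tested passed as higher. The test was chosen after the values were known. The call held under every alternative run, among them DESeq2, the replicate block and leaving out each library in turn (1.79 to 2.56). Without both TBI 3d replicate 3 and TBI 10d replicate 3 it was 1.67 (adjusted p = 0.00926).

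The ratio of Lsp1alpha to Lsp1beta counts in the same library, in percent, does not depend on library size or scaling, but moves with the level of either gene. In the controls of day 1 the ratio was 0.220% to 0.421%. In order of time from 3 d, it was 0.185% to 0.435%, 0.260% to 0.544%, 0.520% to 0.938%, and 0.654% and 1.08% after sham. After TBI the same times gave 1.07% to 5.53%, 0.471% to 3.22%, 3.05% to 8.34%, and 4.08% and 4.25%. The TBI samples were above all sham samples of the same time at 3, 10 and 15 d, and 2 of 3 were at 7 d. At 1, 3, 6 and 24 h, when Lsp1beta was low after TBI, the median ratio was above that of sham. This was in part without a higher Lsp1alpha. At 12 h Lsp1beta was low too, but the median ratio was 0.648% after TBI and 0.932% after sham, and the groups overlapped. At 1 h the ratio overlapped as well (0.162% to 1.36% after TBI and 0.191% to 0.732% after sham). At 3 h and 6 h it was 1.19% to 2.08% and 1.45% to 1.95% after TBI and 0% to 0.896% and 0.571% to 1.05% after sham, on 2 to 12 counts of Lsp1alpha per TBI library. At 24 h it was 0% to 2.64% after TBI and 0.203% to 0.540% after sham on day 1, and 0.952% to 3.17% against 0.235% to 1.33% on day 2, where the mean Lsp1alpha level was 0.167 CPM after TBI and 0.301 CPM after sham.

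**Figure D4:**
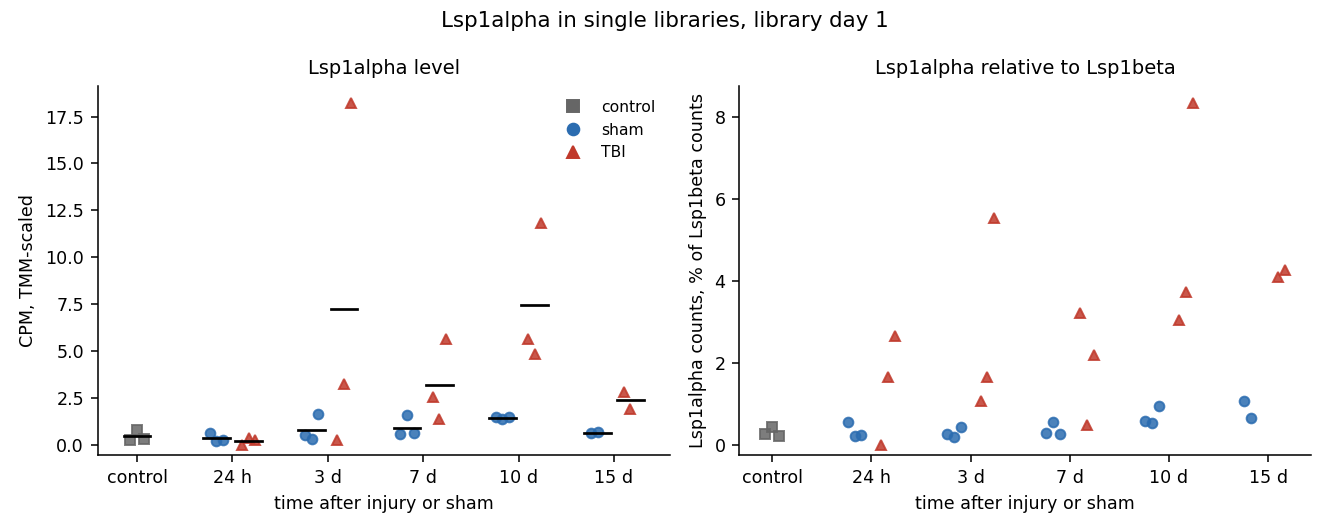
Lsp1alpha on library day 1 by time after injury or sham, as CPM (left, black bars are group means) and as counts in percent of Lsp1beta counts in the same library (right); points are libraries. At 10 d and 15 d every TBI library lies above every sham library in both panels.

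Yolk protein genes, which the fat body and ovary of adult females transcribe, varied in part with Lsp1alpha on day 1. The Pearson r of log2(CPM + 1) between Yp1 and Lsp1alpha was 0.664 over the 31 libraries of day 1, and 0.451 after the group means were taken out. Without TBI 10d replicate 3 it was 0.631. The r of 0.732 over the 33 libraries of day 2 rested on the library labelled sham 12h replicate 3, without which it was -0.0050, with Yp1 at 0 to 0.600 CPM in the other 32. At 10 d Yp1 stood at 2.81, 3.55 and 6.05 CPM in sham and 11.2, 0.929 and 617 CPM in TBI. In TBI 10d replicate 2, with 0.929 CPM of Yp1, Lsp1alpha was 4.86 CPM, above all sham samples. At 15 d Yp1 was 0.295 and 2.24 CPM in sham and 2.96 and 2.15 CPM in TBI, and at 3 d TBI replicate 3, the highest in Lsp1alpha, had 2.31 CPM of Yp1. Whether yolk gene levels bear on Lsp1alpha was not tested beyond this: the late difference of Lsp1alpha without TBI 10d replicate 3 was 2.20 (edgeR adjusted p = 0.00527).

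Sham was compared with the uninjured controls of the same library day, and so was TBI. Sham differed from them in handling and age, and TBI in injury as well. The hour of collection may have differed too, and its part was not tested. The comparisons share their controls, so their values are set side by side only. On day 2 the control samples stood at 895, 1690 and 1286 CPM of Lsp2. Sham against control gave -1.13 ± 0.61 for Lsp2 at 3 h (adjusted p = 0.386) and -1.86 ± 0.62 at 6 h (0.109), and at 6 h all sham samples lay below all controls. With the replicate number as a block the 6 h value was -2.08 (edgeR adjusted p = 0.0440). For Lsp1beta the values were -1.62 ± 0.55 at 3 h (0.179) and -0.92 ± 0.54 at 6 h (0.411). The 3 h value was -1.96 without control replicate 1 (edgeR adjusted p = 0.0266), and -2.09 to -1.23 over all single libraries left out. At 1, 3 and 6 h 0 of 4 members passed in edgeR and in DESeq2, where 0.438%, 0.363% and 3.12% of all genes passed in edgeR. At an unadjusted p under 0.05 the counts were 0, 1 and 1.

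TBI against control on day 2 gave 0 of 4 members at 1 h, in edgeR, in DESeq2 and at an unadjusted p under 0.05 (13.2% of all genes passed in edgeR). Without TBI 1h replicate 1 Lsp2 passed there (-2.10, edgeR adjusted p = 0.0391). Over all single libraries left out, its 1 h value ranged from -2.10 to -0.64. TBI against control gave 2 of 4 at 3 h (23.9%) and 2 of 4 at 6 h (28.6%). Lsp2 fell at 3 h (-1.98 ± 0.62, edgeR adjusted p = 0.0211) and at 6 h (-3.19 ± 0.65, 6.29e-04). Lsp1beta fell at both times as well (-2.25 ± 0.56, 0.00408, and -2.38 ± 0.57, 0.00254). All TBI samples lay below all controls in these 4 cases. At 3 h the call of Lsp2 was lost without control replicate 2 or without TBI replicate 3.

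On day 1 the controls stood at 2040, 2590 and 2175 CPM of Lsp2, and 1 of 3 members passed in sham against control. Lsp2 fell at 15 d (-2.19 ± 0.80, edgeR adjusted p = 0.0369), where 35.3% of all genes passed. That call was lost with no filter on low counts and without sham 15d replicate 1, control replicate 2 or control replicate 3. The sham values of Lsp2 were -0.19 ± 0.66 at 3 d, -0.99 ± 0.66 at 7 d and -0.98 ± 0.66 at 10 d, and at 7 d and 10 d every sham sample lay below every control. At 3, 7 and 10 d 0 of 3 members passed in edgeR, in DESeq2 and at an unadjusted p under 0.05 (23.9%, 29.3% and 37.9% of all genes passed in edgeR). Lsp1beta was at 0.83 ± 0.58, 0.82 ± 0.58, 0.73 ± 0.58 and -0.81 ± 0.67 at 3, 7, 10 and 15 d after sham. In models of only these groups Lsp1beta passed at 7 d (edgeR adjusted p = 0.0498), and Lsp2 and Lsp1alpha at 10 d (0.0138 and 0.0412).

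In TBI against control on day 1, Lsp1alpha rose at 3 d (4.14 ± 0.97, edgeR adjusted p = 0.00292), 7 d (2.93 ± 1.00, 0.0265) and 10 d (4.15 ± 0.96, 0.00153). Its control samples had 4, 10 and 5 counts. It was the only member of 3 to pass at these times, where 30.1%, 35% and 44.1% of all genes did. At 15 d its value was 2.51 ± 1.08 (0.0641), that of Lsp2 -1.79 ± 0.78 (0.0692), and 0 of 3 members passed (43.7%; 2 at an unadjusted p under 0.05, 1 in DESeq2, 1 with the replicate block and 3 in a model of only these groups). The 3 d call of Lsp1alpha was lost without TBI 3d replicate 3 (2.02, edgeR adjusted p = 0.111), and so was the 7 d call without TBI 7d replicate 3 or without control replicate 1 or 3. When the model held just the TBI 3 d and control samples, Lsp1alpha was removed by the filter on low counts and not tested. After sham the values of Lsp1alpha at 3, 7, 10 and 15 d were 0.93 ± 1.09, 1.14 ± 1.16, 1.78 ± 1.06 and 0.59 ± 1.24.

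The 12 h and 24 h groups were set beside the same controls without a test. At 12 h Lsp2 differed from the controls by -0.26 ± 0.60 after sham, with overlap, and by -3.05 ± 0.65 after TBI, without overlap (5.8% and 25.9% of all genes passed in these comparisons). At 24 h all sham samples of Lsp2 lay below all controls on both days, by -1.58 ± 0.67 on day 1 and -1.62 ± 0.62 on day 2 (2.09% and 1.28%). After TBI the 24 h values were -4.77 ± 0.77 and -4.82 ± 0.71 (37.3% and 20.4%). Lsp1beta overlapped the controls after sham at 24 h (-0.46 ± 0.58 and -0.55 ± 0.53) and lay below them after TBI (-3.17 ± 0.64 and -3.26 ± 0.59).

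No member changed detectably among the late groups. The joint test over 3, 7, 10 and 15 d gave Lsp2 an adjusted p of 0.560 in sham and 0.559 in TBI, and Lsp1beta 0.573 and 0.383. In sham and in TBI 0 of 3 members passed in edgeR and in DESeq2, 0 had an unadjusted p under 0.05, and 2.47% and 2.57% of all genes passed in edgeR. The lowest of these late means were those of 15 d, with 2 samples each: Lsp2 stood at 496 ± 371 CPM in sham and 657 ± 136 CPM in TBI, and Lsp1beta at 76.8 ± 31.1 and 57.2 ± 17.0 CPM.

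Ordered by mean Lsp2 level, day 1 ran from the controls (2269 ± 287 CPM) through TBI 3 d (2091 ± 1883), sham 3 d (1994 ± 1500), TBI 7 d (1736 ± 440), TBI 10 d (1385 ± 642), sham 10 d (1154 ± 312), sham 7 d (1142 ± 655), sham 24 h (757 ± 172), TBI 15 d (657 ± 136) and sham 15 d (496 ± 371) to TBI 24 h (83.2 ± 20.7). Each group overlapped the next in this order except the last: all TBI 24 h samples lay below all others. On day 2 the order began with sham 1 h (1465 CPM), the controls (1291 ± 398) and sham 12 h (1081 ± 256), and ended with TBI 12 h (156 ± 37.5), TBI 6 h (141 ± 103) and TBI 24 h (45.7 ± 10.1). Neighbours overlapped throughout on that day. For Lsp1beta the order on day 1 began with sham 3 d (240 ± 114 CPM), sham 7 d (238 ± 49.4) and sham 10 d (224 ± 57.8), above the controls (135 ± 47.0), and ended with TBI 24 h (15.1 ± 6.13). On day 2 it began with sham 12 h (122 ± 38.7) and ended with TBI 24 h (8.17 ± 2.84).

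Lsp2 and Lsp1beta varied together from sample to sample. Over the 31 libraries of day 1 the Pearson r of their log2(CPM + 1) was 0.878, and 0.816 after the group means were taken out. Over the 33 libraries of day 2 it was 0.896 and 0.877. Both genes are read from the same library and the same pool of heads, so each such r is a description. With Lsp1alpha, the r of Lsp2 was 0.469 and 0.462 on days 1 and 2. Replicates of 1 group differed more in these genes than in most: the biological coefficient of variation was 0.538 for Lsp2, 0.483 for Lsp1beta and 0.720 for Lsp1alpha on day 1, against a median of 0.131 over all genes. Of all genes tested on day 1, 97.6%, 96.5% and 98.9% had a lower value, respectively.

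**Figure D5:**
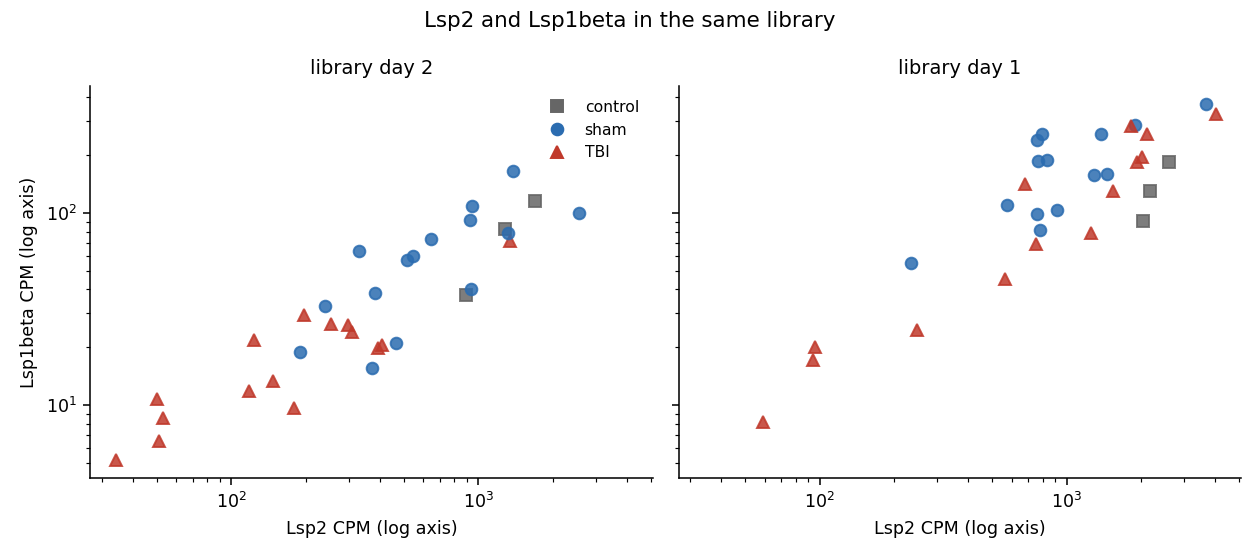
Lsp1beta CPM against Lsp2 CPM in the same library, both on log axes, for library days 2 (left) and 1 (right); points are libraries, coloured by condition. The genes vary together over libraries (Pearson r 0.896 on day 2 and 0.878 on day 1, n = 33 and 31), with the TBI 24 h libraries at the lower end.

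The genes whose levels were most like those of Lsp2, by the mean of the Pearson r of both days over 10357 genes, were tobi (0.882), an alpha-glucosidase gene controlled by insulin-like peptides, Obp44a (0.834), an odorant-binding protein gene, dob (0.808), a paralog of the lipase gene bmm, ppl (0.808), part of the glycine cleavage system, and CG5162 (0.808). For Lsp1beta they were lncRNA:CR43417 (0.826), tobi (0.816), CG9953 (0.812), CG3270 (0.810) and CG10863 (0.796). For Lsp1alpha the values were lower, with Yp1 (0.698, on day 2 from 1 library as described above), CG3999 (0.676), CG9119 (0.670), Obp99b (0.668) and CG34227 (0.664).

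Some other fat body genes fell in the same hours. Of the 17 in the list, which includes tobi and the yolk protein genes, the numbers that fell in TBI against sham at 1, 3, 6 and 12 h were 3, 6, 5 and 5, and 0 rose, where 7.39%, 16.5%, 12.1% and 8.62% of all genes passed in either direction. At 24 h 2 fell on each library day, tobi and AkhR (15% of all genes passed on day 1 and 8.4% on day 2). Of the late times, 3 d gave 1 that rose, the lipase gene bmm (1.04 ± 0.24), and 1 that fell, AkhR (-1.01 ± 0.17), and the others gave 0 in edgeR (2, 6 and 0 at an unadjusted p under 0.05 at 7, 10 and 15 d). The list's median log2 fold change was -0.03, -0.66 and -0.51 at 1, 3 and 6 h, against 0.01, 0.02 and -0.00 over all genes. AkhR, the receptor of the adipokinetic hormone, fell at 1 h and 3 h (-0.89 ± 0.15 and -1.41 ± 0.15, edgeR adjusted p = 1.80e-04 and 1.44e-07). The gene for apolipophorin, apolpp, fell at 1 h and 3 h (-0.97 ± 0.25 and -1.36 ± 0.25), and Mtp, needed to load lipid onto it, fell at 3 h (-0.82 ± 0.27). Of the genes of fatty acid synthesis, FASN1 and ACC, acetyl-CoA carboxylase, fell at 6 h (-1.26 ± 0.22 and -0.70 ± 0.20). At 1 h and 6 h tobi fell too (-1.68 ± 0.49 and -1.88 ± 0.51). At 12 h the fall of Yp1 in the list (-4.43 ± 1.09) had the library labelled sham 12h replicate 3 among its sham samples.

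The summed level of the 17 genes at 3 h was 7093 to 8913 CPM in sham and 3059 to 4563 CPM in TBI, without overlap. The sums were also apart at 1 h (7866 to 10562 against 5199 to 7663 CPM) and 6 h (7898 to 12306 against 4618 to 7474 CPM). They were apart at 12 h as well (10314 to 13200 against 6977 to 9791 CPM). At 24 h of day 2, where Lsp2 was at its lowest, the sums were 7822 to 11822 CPM in sham and 6781 to 9334 CPM in TBI, and overlapped. Those of 24 h on day 1 overlapped too (6812 to 9791 against 5333 to 7437 CPM). At 3, 7 and 10 d the sums overlapped. At 15 d, where the Lsp2 groups overlapped, the sums were apart (8738 to 9181 against 5864 to 8106 CPM, 2 samples each). Fewer fat body cells in a sample and less RNA per cell cannot be told apart in whole heads. Much of the sum is apolpp, whose median was 3746 CPM on day 1 and 5045 CPM on day 2. Over libraries, the r of Lsp2 with this sum was 0.620 on day 1 and 0.411 on day 2. The oenocyte list, nearly all of it the desaturase gene Desat1, summed to 2529 to 3344 CPM in sham and 1334 to 2257 CPM in TBI at 3 h. At 6 h it summed to 1562 to 2455 against 974 to 1172 CPM, and at 24 h on day 1 to 1593 to 1890 against 1071 to 1573 CPM. At 15 d the order was reversed (2518 to 3068 CPM in sham, 3344 to 4024 CPM in TBI). Cyp4g1 and CG18609 of this list had medians of at most 1.28 CPM, so its sum mainly gives the level of Desat1. The neuron list stood at 4815 to 7312 CPM in sham and 4056 to 4554 CPM in TBI at 24 h on day 1. Photoreceptor genes stood at 25963 to 27522 against 29403 to 31023 CPM at 1 h, 25568 to 37590 against 22711 to 24257 CPM at 12 h, and 26995 to 29371 against 20906 to 26936 CPM at 24 h on day 2. The groups were apart in each of these cases. On the other library day the same 24 h RNA overlapped in each of these lists. Oenocyte sums on day 2 were 1411 to 1759 CPM in sham and 1069 to 1476 CPM in TBI. Neuron sums on day 2 were 5084 to 6206 against 4355 to 5234 CPM. Photoreceptor sums on day 1 were 40389 to 47084 against 32602 to 42322 CPM. The part of these markers in the course of Lsp2 and Lsp1beta was not tested. In the 8 hemocyte markers 3 fell at 1 h, Hml (-1.83 ± 0.57), Sr-CI (-1.61 ± 0.40) and srp (-0.69 ± 0.16), where 7.39% of all genes passed. Their summed level overlapped at 1 h (384 to 514 CPM in sham and 340 to 422 CPM in TBI), and also at 3, 6, 12 and 24 h.

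The list of Fbp1, Fbp2 and the prophenoloxidase genes gave no calls, which says little of Fbp1 and Fbp2 at their low levels. Fbp1, the fat body receptor that takes LSP1 back up in the larva, and Fbp2 were near 0, at medians of 0.149 and 0.0590 CPM on day 1. The prophenoloxidase genes PPO1 and PPO2, whose proteins are related to hexamerins, were measured at medians of 18.2 and 27.3 CPM on day 1, and PPO3 was near 0 (0.0864 CPM). The filter on low counts left 2 of the 5 on day 2 and 3 on day 1, and 0 passed in TBI against sham at any time in edgeR (1 at an unadjusted p under 0.05 at 6 h, 2 at 10 d, 0 at the other times). Of the hormone list, which holds ecdysone and juvenile hormone genes, 15 genes were tested at each time. In TBI against sham Eip75B rose at 1 h (0.70 ± 0.20), and Jhe, juvenile hormone esterase, rose at 3 h (1.58 ± 0.45) and 12 h (1.80 ± 0.49), with Hr4 (1.01 ± 0.28). At 24 h 5 of 15 fell on day 1, where 15% of all genes passed, led by ftz-f1 (-0.58 ± 0.12), br (-0.55 ± 0.13) and gce (-0.55 ± 0.11), and 0 passed on day 2 (4 at an unadjusted p under 0.05), where 8.4% of all genes did. At 1, 3 and 12 h the counts were 1, 1 and 2 of 15, where 7.39%, 16.5% and 8.62% of all genes passed.

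Of 11 tested genes for insulin, TOR and starvation, InR, the insulin receptor, rose by 0.79 ± 0.19, 0.80 ± 0.19 and 0.65 ± 0.19 at 1, 3 and 6 h in TBI against sham. The transcription factor gene foxo, which insulin signalling restrains, fell at the same times (-0.64 ± 0.18, -0.97 ± 0.18 and -0.74 ± 0.18). At 3 h and 6 h srl, the PGC-1 homolog, rose (0.96 ± 0.17 and 0.71 ± 0.17). At 3 d Thor, the translation inhibitor 4E-BP, rose (1.53 ± 0.28), as did InR (0.75 ± 0.19), and Thor rose at 10 d (1.33 ± 0.28). Ilp6, an insulin-like peptide made by the fat body, rose at 24 h on day 1 (0.78 ± 0.25), where foxo fell (-0.48 ± 0.16). At 1, 3 and 6 h the numbers that rose were 1, 2 and 2, and those that fell 1, 2 and 1, where 7.39%, 16.5% and 12.1% of all genes passed. At 12 h, 24 h of day 2, 7 d and 15 d 0 passed in edgeR (3, 2, 1 and 1 at an unadjusted p under 0.05).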

How the data were processed

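Per the labels, polyA RNA of whole heads was sequenced as stranded libraries on a NextSeq instrument, on library days 1 and 2. The tools named in the submitters' processing notes are HISAT2, HTSeq, Picard, FastQC, MultiQC and DESeq2. No source used here gives their versions, the genome build or the strand setting. The deposited values are raw counts of 17481 genes in each library. The table's 5 categories of unassigned reads were left out. Of the genes 17343 were matched to a symbol in BDGP6.54.

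Tests used edgeR 4.0.16 in R 4.3.3, with 1 quasi-likelihood model of 11 groups per library day, TMM factors, filterByExpr and robust estimation. Standard errors are |log2 fold change|/√F. RPKM uses exon length. On simulated data for TBI against sham at 3 d and at 6 h the models were tested and recovered most of the changed genes. The simulated spread followed the trend over all genes, and most genes varied less than the members. The recovery therefore does not tell how well changes of the members would be found. Median counts of 16.1 M and 24.3 M per library make counts of a few reads, as in Lsp1gamma, uninformative.

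The members and gene lists were chosen with earlier results of these data known. The named genes were the members, the 5 genes most correlated with each, and up to 3 passing genes per list by size of change. Of the list symbols 4 were not found (Jhamt, Tor, FASN3, KAR). Samples of TBI and sham with the same replicate number deviated together (r over 0.1) in 25 of 29 pairs, and in all pairs of 7 of 10 comparisons, the exceptions being 24 h on day 1, 3 h and 12 h. The alternatives were RLE size factors, no filter, DESeq2 1.42.0, the replicate block, only the groups compared, and leaving out each library.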

Additional observations from a re-analysis of the deposited data

How the results depend on the processing

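Counts of members passing in TBI against sham were 0 at all 7 single times tested and stayed 0 with RLE size factors, no filter, the replicate block and only the groups compared, and with DESeq2 except at 3 d (1). Leaving out 1 library gave 0 to 1 at 1 h, 6 h and 3 d. In the averages over several times, only the groups compared gave 1 of the 2 calls over 1, 3 and 6 h. Leaving out a library gave 0 to 3 there, and the count of 3 included a member other than Lsp2 and Lsp1beta. The single call over 3 to 15 d stayed 1. For TBI over 1 h to 6 h the count of 1 became 0 with no filter and with only the groups compared, and 0 to 2 without a library.

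Against the controls, sham at 6 h gave 1 with the replicate block, sham at 7 d 1 and at 10 d 2 with only the groups compared, and sham at 15 d 0 with no filter. TBI at 3 d gave 0 with only the groups compared, where Lsp1alpha was removed by the filter on low counts, and TBI at 15 d 1 with DESeq2, 3 with only the groups compared and 1 with the replicate block. Leaving out a library gave 0 to 1 for TBI at 1 h, 3 d and 7 d and for sham at 3 h and 15 d, and 1 to 2 for TBI at 3 h. The replicate block changed no other count. Every TBI sample was closest to the sham sample of its own number in 5 of 10 comparisons. The cause of these changes was not tested.

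The single values that changed sign when a library was left out were all of differences that had not passed. For Lsp2 these ranged from -0.82 to 0.86 (TBI against sham, 3 d), -0.064 to 0.59 (10 d), -0.21 to 1.48 (15 d), -0.95 to 0.22 (sham against control, 3 d), -1.0 to 0.41 (TBI against control, 3 d) and -0.50 to 0.59 (sham against control, 1 h). For Lsp1beta they ranged from -1.13 to 0.13 (TBI against sham, 3 d), -0.50 to 0.18 (7 d), -0.79 to 0.046 (15 d), -0.30 to 0.96 (TBI against control, 3 d) and -0.047 to 0.48 (10 d). For Lsp1alpha in sham against control at 3 d the range was -0.039 to 1.59. The largest shift of the median log2 fold change of all genes by RLE scaling was 0.0375. The standard errors of TBI against sham at single times were 0.54 to 0.80 on the log2 scale for Lsp2 and Lsp1beta, which limits the differences these groups can show.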
